A study of Mus musculus with 4 samples.

Results

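The circadian clock genes described here were the transcription factors Arntl (also called Bmal1) and Clock, the repressors Per1, Per2, Per3 and Cry1, the nuclear receptors Nr1d1 and Nr1d2, and the output factors Dbp and Tef. They were chosen by name, as 10 of the 18193 genes that a single-symbol probe set identified on the arrays. They were read by 25 of the 45037 probe sets, each a group of short probes for 1 transcript region. Total RNA of the parietal peritoneum, which lines the inside of the body wall, of C57BL/6J mice was read on 4 GeneChip arrays with 1 array per group. The groups were SAP-BNP-Tg mice given chlorhexidine gluconate, SAP-BNP-Tg mice given vehicle, wild-type (WT) mice given chlorhexidine gluconate, and WT mice given vehicle. SAP-BNP-Tg mice carry brain natriuretic peptide under the serum amyloid P promoter and are called transgenic below. Chlorhexidine, an antiseptic that irritates the peritoneum, was injected into the abdominal cavity as a 0.1% solution in 15% ethanol and 85% PBS, at 0.01 mL per gram of body weight, 3 times a week for 21 days. The vehicle groups are labelled ethanol/PBS, and their volume and schedule are not stated in the labels. The labels give neither the age of the mice, nor how many contributed to an array, nor the time of day at which tissue was taken.

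The mammalian clock is a transcriptional feedback loop. The Arntl and Clock proteins pair on E-box sequences and drive Per, Cry, Nr1d1, Nr1d2, Dbp and Tef, the Per and Cry proteins then block that pair, and the Nr1d receptors repress Arntl and Nfil3 through elements called RREs. Dbp, Tef and Hlf act through D-boxes, where Nfil3 opposes them. In most mouse tissues Arntl peaks at the opposite time of day to Nr1d1 and Dbp, and these transcripts swing by large factors over a day, so their levels depend on the hour of sampling.

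The start regions of 4 members are shown because they carry the letters of the elements through which the loop is wired. They come from RefSeq (build GRCm38.p6), cover the 250 bases before an annotated transcript start and run 5' to 3' on the gene's strand. Start regions were found for 9 of the 10 members, 14 in all. Capitals mark an E-box (CACGTG), a variant E-box (CACGTT, here on the other strand as AACGTG) or a D-box (TTATGTAA or TTACGTAA).
Tef (chr15:81802423-81802672, plus strand): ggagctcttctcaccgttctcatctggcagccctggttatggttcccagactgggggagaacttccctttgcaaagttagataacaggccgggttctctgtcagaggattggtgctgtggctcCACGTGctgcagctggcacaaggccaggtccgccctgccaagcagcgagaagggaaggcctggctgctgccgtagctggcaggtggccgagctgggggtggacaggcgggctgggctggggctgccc
Per1 (chr11:69098699-69098948, plus strand): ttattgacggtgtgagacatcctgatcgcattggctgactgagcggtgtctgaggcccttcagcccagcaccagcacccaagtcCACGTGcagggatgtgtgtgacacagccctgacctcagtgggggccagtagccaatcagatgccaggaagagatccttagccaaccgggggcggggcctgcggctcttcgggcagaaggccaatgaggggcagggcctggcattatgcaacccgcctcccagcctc
Cry1 (chr10:85185055-85185304, minus strand): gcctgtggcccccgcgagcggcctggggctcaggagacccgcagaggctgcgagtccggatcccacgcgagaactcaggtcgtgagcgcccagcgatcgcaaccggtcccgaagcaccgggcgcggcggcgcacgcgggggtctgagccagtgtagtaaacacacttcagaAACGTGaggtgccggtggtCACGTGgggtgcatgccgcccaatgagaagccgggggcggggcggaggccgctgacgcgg
Per3 (chr4:151044666-151044915, minus strand): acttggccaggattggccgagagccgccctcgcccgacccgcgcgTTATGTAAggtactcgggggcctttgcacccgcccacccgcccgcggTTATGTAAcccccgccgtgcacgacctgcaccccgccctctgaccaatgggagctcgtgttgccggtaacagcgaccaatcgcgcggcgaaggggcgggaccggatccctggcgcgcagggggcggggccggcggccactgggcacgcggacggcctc
The Tef E-box shown began at base -127 and that of Per1 at -166, counted from the transcript start. Another Tef start region, not shown, held an E-box at -138. Cry1 held an E-box at -60 beside a variant E-box at -79, and Per3 held D-boxes at -205 and -158. Nr1d1 had a variant E-box at -28, and none of the 4 motifs matched in the windows of Arntl, Clock, Nr1d2 and Dbp, which says only that these letters are not in these windows. Both strands were searched, and no matches in the members overlapped. The E-box was found in 6.02%, the variant E-box in 3.85%, the D-box in 0.932% and the RRE letters TAGGTCA or TGGGTCA in 5.38% of 32851 RefSeq start regions of this length. A match is a description of the letters and was not tested as a binding site.

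Signals below are intensities on a linear scale, multiplied so that each array had the same trimmed mean, and differences are log2 of one scaled signal over another. With 1 array per group there is no replicate spread and no test. A gene was called by size alone, when it differed at least 2-fold (1 on the log2 scale), was called Present by the array software on the brighter array, and was not among the dimmest 25% of Present probe sets there. Of all 18193 genes, 12754 were Present on at least 1 array, and all 10 members were among them. The WT vehicle array stood apart, with a mean 18S rRNA control signal of 1052 against 81.5 to 108 on the other arrays and a ratio of 3' to middle beta-actin signal of 5.81 against 2.23 to 2.84. WT chlorhexidine differences of the members are therefore also given against the transgenic vehicle array.

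No clock gene was called in either chlorhexidine comparison. The rule called 5.21% of the 12754 genes with chlorhexidine in transgenic tissue and 13.2% in WT tissue, against 0 of 10 members in each. The median difference of the members was -0.30 in transgenic and -0.24 in WT tissue (-0.19 in WT against the transgenic vehicle array), where the medians over all genes were 0.0012 and -0.0009 (0.03). The WT chlorhexidine array against the transgenic vehicle array also gave 0 called members, where 10.8% of genes were called. With chlorhexidine 7 members (Per1, Per2, Per3, Cry1, Nr1d2, Dbp and Tef) lay below 0 in both genotypes, although Per3, Cry1 and Nr1d2 lay above 0 in WT with the deposited scaling and Nr1d2 also after quantile normalization. The tally also depends on the choice of probe set, since with the mean of a gene's Present probe sets Tef (0.25), Per3 (0.35) and Nr1d2 (0.57) lay above 0 in WT. Against the transgenic vehicle array Nr1d2 lay above 0 as well. Among all genes 36.4% lay below 0 in both. At a lower bar of 1.5-fold, 3 members (Dbp, Per1 and Per2) were lower in transgenic tissue, where 5.36% of genes were, and 3 (Dbp, Tef and Arntl) in WT tissue, where 14.9% were. WT chlorhexidine against the transgenic vehicle array gave 2 (Dbp and Per2), where 11.4% of genes were lower. Over the 4 arrays, by the probe sets used, the highest signal of Dbp was 1.88 times its lowest, while that of Nr1d2 was 1.14 times its lowest.

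**Figure D1:**
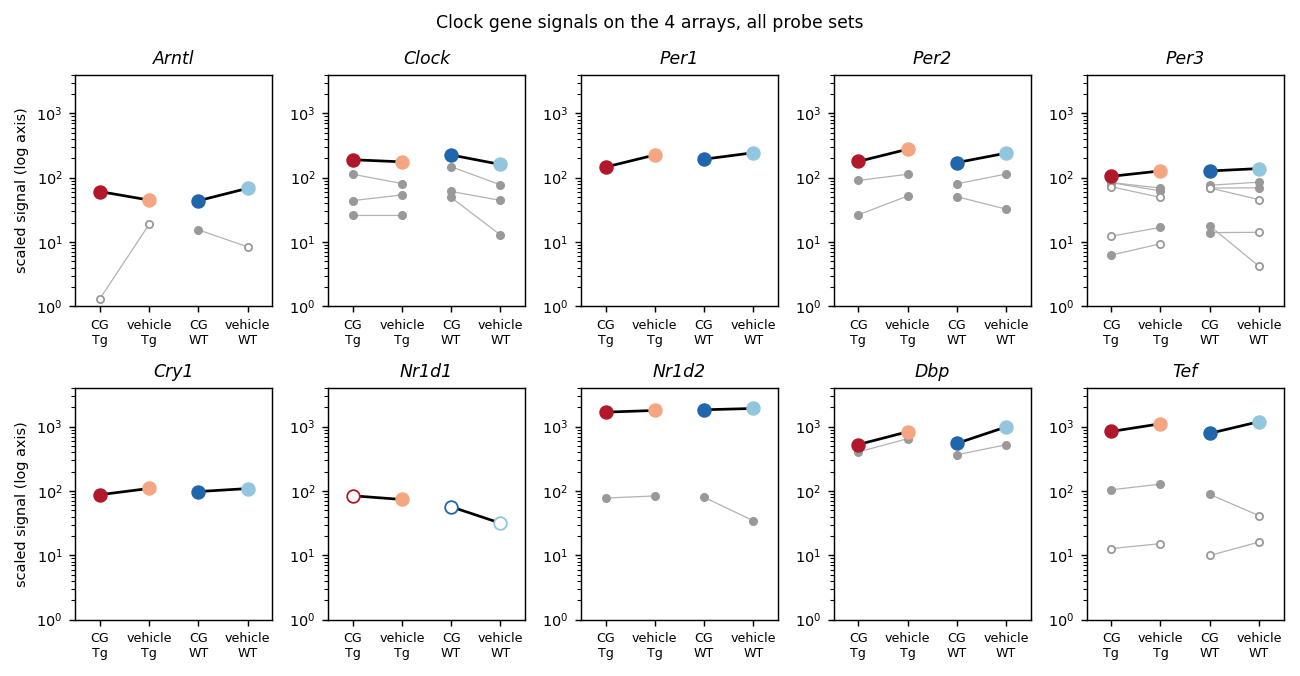
Scaled signal (log axis) of every probe set of the 10 clock genes on the 4 arrays, with CG for chlorhexidine gluconate and Tg for SAP-BNP-Tg. Large coloured points joined in black are the probe set used for the gene, grey points the others, and open points were not called Present. Among the large points, Dbp and Tef sit lower on each chlorhexidine array than on its vehicle array, Nr1d2 stays between 1676 and 1912, and Nr1d1 is filled on 1 array.

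The output factors were lower on both chlorhexidine arrays. Dbp, a D-box activator, had a signal of 526 on the transgenic chlorhexidine array against 830.3 on the transgenic vehicle array. In WT it had 548 with chlorhexidine against 988 with vehicle. Dbp was thus lower with chlorhexidine, by 1.58-fold in transgenic tissue (log2 -0.66) and 1.80-fold in WT tissue (log2 -0.85, or -0.60 against the transgenic vehicle array). The second Dbp probe set gave -0.68 and -0.52. The sizes of the first, -0.66 and -0.85, were larger than those of 80.5% and 76.1% of all genes. Present probe sets with log2 signals above 9, where this one lies, had a median WT difference of -0.25. Tef, a related activator, had 839.6 with chlorhexidine against 1106 with vehicle in transgenic tissue. In WT tissue Tef had 783 with chlorhexidine against 1192 with vehicle. The differences were 1.32-fold lower (log2 -0.40) and 1.52-fold lower (log2 -0.61, or -0.50 against the transgenic vehicle array). Below 0 in both genotypes under all 4 other scalings were Dbp, Tef, Per1 and Per2. A second Tef probe set, not Present on the WT vehicle array, had 104 with chlorhexidine against 128 with vehicle in transgenic tissue and 88.6 against 41.4 in WT tissue, so the Tef probe sets differed in sign in WT. The third was Present on 0 arrays. Hlf, the third activator of this family and no member here, had 57.6 with chlorhexidine against 94.3 with vehicle in transgenic tissue and 41.9 against 73.2 in WT tissue, and the WT difference was -1.17 against the transgenic vehicle array, where the rule called it lower.

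The Per genes encode repressors that feed back on the Arntl and Clock pair. Per1 had 146 with chlorhexidine against 225 with vehicle in transgenic tissue. In WT tissue it had 194 with chlorhexidine against 244 with vehicle. Per1 was thus lower with chlorhexidine, by 1.54-fold (log2 -0.62) and 1.26-fold (log2 -0.33, or -0.22 against the transgenic vehicle array). Per2 had 179 with chlorhexidine against 276 with vehicle in transgenic tissue and 171 against 240.3 in WT tissue, at log2 differences of -0.63 and -0.49 (-0.69 against the transgenic vehicle array). Of the other Per2 probe sets, the brighter one gave -0.32 and -0.51, and the dimmer one -0.97 and 0.64, so the probe sets differed in sign in WT. Per3 had 105 with chlorhexidine against 127 with vehicle in transgenic tissue and 127 against 138 in WT tissue, at -0.28 and -0.12 (-0.0027 against the transgenic vehicle array). Its other 2 probe sets that were Present on all arrays gave 0.29 and 0.43 in transgenic tissue and -0.16 and -0.01 in WT tissue, so these 3 probe sets differed in sign in transgenic tissue and lay below 0 in WT. A dim Per3 probe set, Present on 2 arrays and not on the WT vehicle array, gave -0.45 in transgenic and 2.08 in WT tissue. Another, also Present on 2 arrays, gave -0.58 and -0.02, and the last, Present on 0 arrays, gave 0.55 and 0.61. Cry1, the partner repressor with 1 probe set, had 87.4 with chlorhexidine against 109 with vehicle in transgenic tissue and 97.8 against 109 in WT tissue, at -0.32 and -0.15 (-0.16 against the transgenic vehicle array).

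By the probe sets used, the activators both lay above 0 in transgenic tissue and differed in sign in WT tissue. Arntl had 60.8 with chlorhexidine against 44.8 with vehicle in transgenic tissue, which is 1.36-fold higher (log2 0.44). In WT tissue it had 43.8 with chlorhexidine against 68.2 with vehicle, which is 1.56-fold lower (log2 -0.64). Against the transgenic vehicle array the WT difference was -0.03, so it was as large as stated only with the WT vehicle array that stood apart. The second Arntl probe set was Present on 1 array. Clock had 189.9 with chlorhexidine against 176 with vehicle in transgenic tissue and 225 against 160.3 in WT tissue. Its differences were 0.11, which was below 0 with the deposited scaling and the housekeeping scaling, and 0.49 (0.36 against the transgenic vehicle array). All 4 Clock probe sets were Present on every array and ranged from -0.30 to 0.48 in transgenic and from 0.46 to 1.93 in WT tissue.

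The nuclear receptors Nr1d1 and Nr1d2 repress Arntl, and the probe sets used for them differed in brightness. Nr1d2 had 1676 with chlorhexidine against 1781 with vehicle in transgenic tissue and 1826 against 1912 in WT tissue. Its differences of -0.09 and -0.07 (0.04 in WT against the transgenic vehicle array) were among the smallest of the members. The other Nr1d2 probe set, dimmer and Present on all arrays, gave -0.11 and 1.22, so the Nr1d2 probe sets differed in sign in WT. Its signal was 79.9 with chlorhexidine in WT, against 34.4 on the WT and 83.7 on the transgenic vehicle array. Nr1d1 was barely detected, with 84.2 (chlorhexidine) against 73.7 (vehicle) in transgenic tissue and 56.8 against 31.6 in WT tissue (log2 0.19 and 0.85, and -0.38 in WT against the transgenic vehicle array). Only the transgenic vehicle array had a Present call, with a detection p from the array software of 0.0461, against 0.0952, 0.0952 and 0.171 on the transgenic chlorhexidine, WT chlorhexidine and WT vehicle arrays. No fold was taken for Nr1d1 with chlorhexidine, since it was not Present on the brighter array in either genotype.

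**Figure D2:**
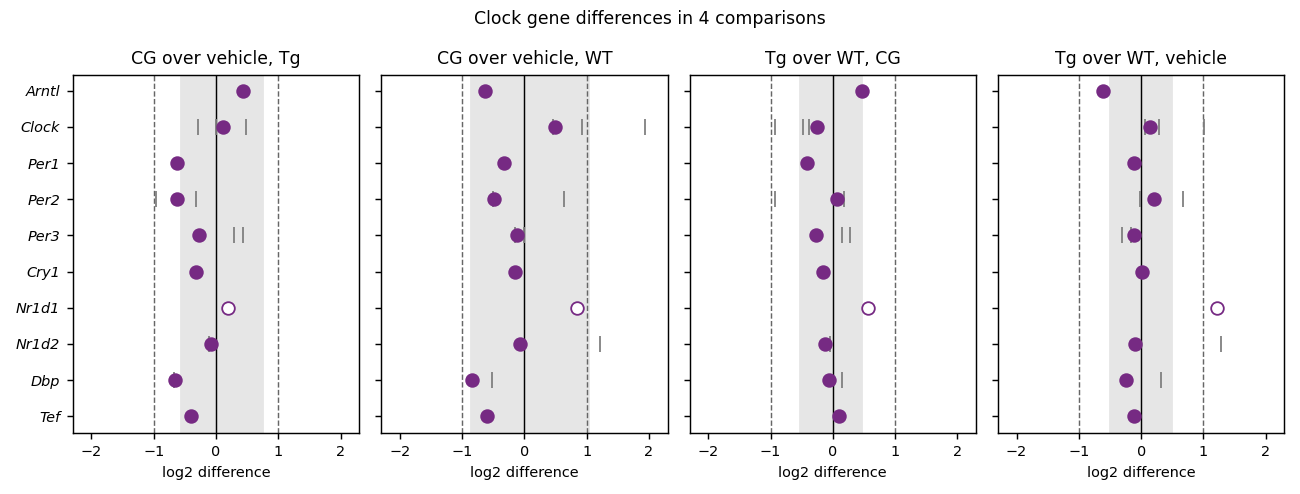
Log2 differences of the clock genes in 4 comparisons. Purple points are the probe set used (open where it was not Present on both arrays), grey ticks other probe sets Present on all 4 arrays, the grey band the middle 80% of 12754 genes and dashed lines a 2-fold difference. The only purple point past a dashed line is the open one of Nr1d1 between the vehicle arrays.

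Between the genotypes no clock gene was called under chlorhexidine. The rule called 0 of 10 members for transgenic against WT tissue, where it called 1.75% of genes. The sizes of the member differences were larger than those of 14.4% (Dbp) to 84.2% (Nr1d1) of all genes. The member differences ran from -0.41 (Per1) to 0.57 (Nr1d1, not Present on either array) with a median of -0.09, against -0.03 over all genes. Dbp had 526 in transgenic and 548 in WT tissue, a difference of -0.06 that changed sign after median centring and housekeeping scaling. Per2 and Tef differed by 0.06 and 0.10, and Arntl by 0.47.

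Under vehicle, 1 of 10 members was called, Nr1d1, which was at least 2.33-fold higher in transgenic than in WT tissue (73.7 against 31.6, with the WT array not Present). The rule called 1.46% of genes in this comparison and 0.957% as higher. This value rests on 1 probe set and on the WT vehicle array that stood apart. The other members ran from -0.61 (Arntl) to 0.20 (Per2). At 1.5-fold, Arntl was the 1 member called lower, at 44.8 against 68.2, where 3.55% of genes were. Dbp had 830.3 in transgenic and 988 in WT vehicle tissue, a difference of -0.25 that was 0.17 with the deposited scaling, and its second probe set gave 0.31.

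Of the 18 member probe sets that were Present on all arrays, 2 reached 2-fold in any of the 4 comparisons, the dimmest of Clock and the dimmer of Nr1d2. The Clock probe set had 25.9 and 25.9 on the transgenic chlorhexidine and vehicle arrays, 49.2 on the WT chlorhexidine array and 12.9 on the WT vehicle array. The Nr1d2 probe set had 77.6 and 83.7 on the transgenic chlorhexidine and vehicle arrays, and 79.9 and 34.4 on the WT chlorhexidine and vehicle arrays. In both the WT vehicle array was the low one. Over all Present probe sets with log2 signals from 5 to 7, the median WT chlorhexidine difference was 0.23, and above 9 it was -0.25, against 0.04 and -0.08 in transgenic tissue. The SD between probe sets of the same gene was 0.294 for the transgenic and 0.454 for the WT chlorhexidine difference, over 4431 genes. The part of the WT vehicle array in the differences of dim clock probe sets was not tested.

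**Figure D3:**
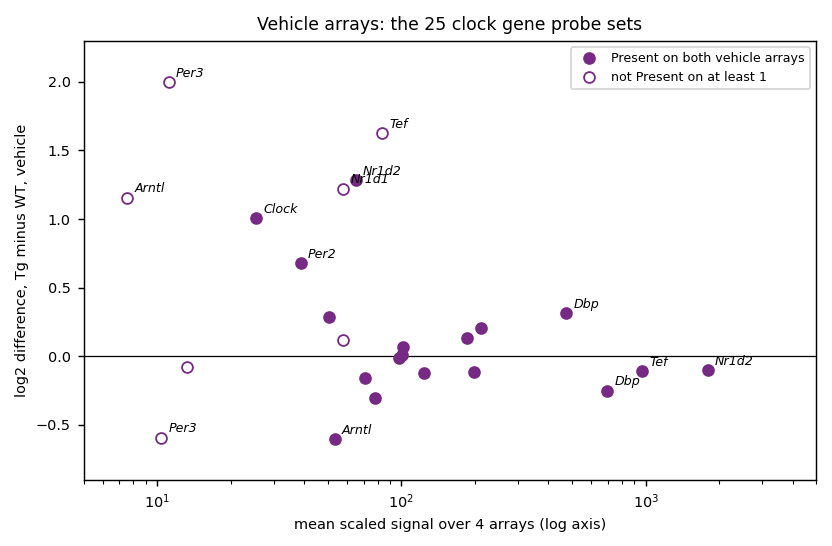
Log2 difference of the vehicle arrays (transgenic minus WT) for the 25 clock gene probe sets against mean scaled signal (log axis). Filled points were Present on both vehicle arrays. The brightest probe sets, of Nr1d2, Tef and Dbp, lie between -0.25 and 0.31, while dimmer ones of Arntl, Clock, Per3, Nr1d1, Nr1d2 and Tef lie above 1. Of these dimmer ones, only those of Clock and Nr1d2 were Present on both vehicle arrays.

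The loop's opposing arms give a comparison that a common scale factor cannot move, but a trend with brightness can. The Dbp probe set used had a mean signal of 697.5 and that of Arntl 53.4. Median WT chlorhexidine differences were -0.25 for Present probe sets with log2 signals above 9 and 0.23 from 5 to 7. Between the vehicle arrays they were -0.12 and 0.07. The part of this trend in the arm values was not tested. The genes driven through E-boxes or D-boxes (Dbp, Tef, Hlf, Nr1d1, Nr1d2, Per1, Per2, Per3, Ciart and Bhlhe40 detected) had medians of -0.51 with chlorhexidine in transgenic and -0.26 in WT tissue. Those assigned to the arm held down through RREs (Arntl, Clock, Cry1 and Nfil3 detected) had medians of 0.25 and -0.40. Cry1 was counted in this arm alone, although its start region held an E-box and a variant E-box. It lay at -0.32 and -0.15, so the medians of this arm of 4 genes depend on where Cry1 is placed. No RRE letters were found in the start regions of Arntl, Clock and Cry1. The first arm minus the second was thus -0.76 in transgenic and 0.14 in WT tissue, where it was -0.34 against the transgenic vehicle array. Between genotypes the same value was -0.25 under chlorhexidine and 0.21 under vehicle. For the pair that peaks at opposite times, the difference of Dbp minus that of Arntl was -1.10 in transgenic and -0.21 in WT tissue, -0.56 in WT against the transgenic vehicle array. It was -0.53 between genotypes under chlorhexidine and 0.36 under vehicle. Without sampling times in the labels, a shift in clock phase, a change in its amplitude and a change in cell makeup cannot be told apart in these values, and in bulk tissue fewer cells of a type and less RNA per cell cannot be told apart either.

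**Figure D4:**
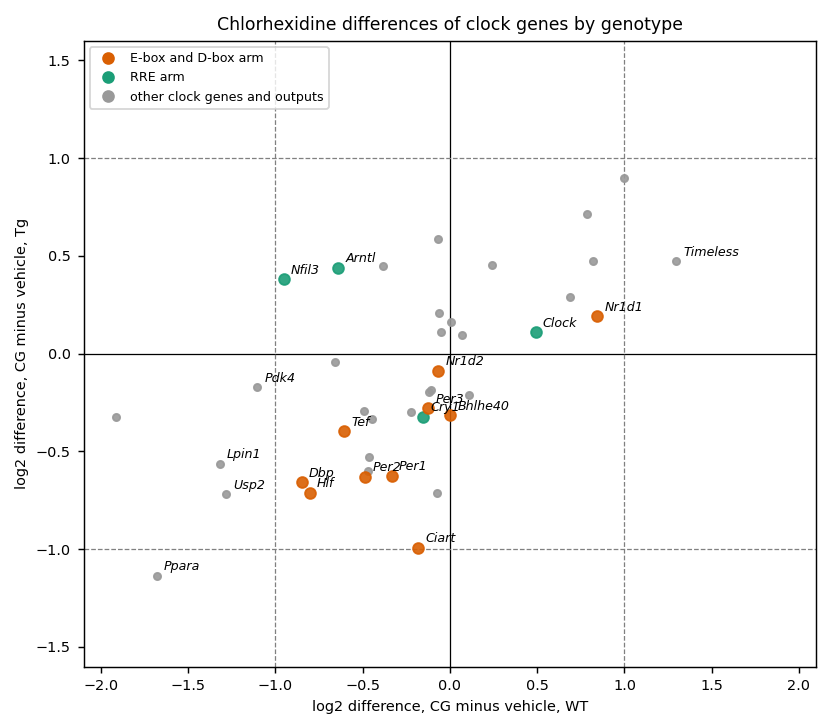
Log2 chlorhexidine differences in transgenic tissue (vertical) against WT tissue (horizontal) for detected clock genes and clock outputs. Colours give the arm of the loop to which a gene was assigned, and dashed lines mark 2-fold. Most E-box and D-box genes lie in the lower left, while Arntl and Nfil3 lie at 0.44 and 0.38 in transgenic and at -0.64 and -0.95 in WT tissue.

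Other genes of the clock were read from a list of 25, of which 21 were on the arrays and 16 were detected. None was called with chlorhexidine in transgenic tissue, where the rule called 5.21% of all genes. In WT tissue 1 was called, Timeless, a replication fork protein. That is 1 of 16 in a comparison where the rule called 13.2% of all genes, and 8.22% as higher. Timeless had 79.3 with chlorhexidine against 57.2 with vehicle in transgenic tissue and 116 against 47.1 in WT tissue, where it was 2.46-fold higher (log2 1.01 against the transgenic vehicle array). Neither comparison between genotypes called any of the 16, where the rule called 1.75% of all genes under chlorhexidine and 1.46% under vehicle. Nfil3, the repressor at D-boxes, had 377 with chlorhexidine against 289 with vehicle in transgenic tissue (log2 0.38) and 251 against 486 in WT tissue (log2 -0.95, or -0.21 against the transgenic vehicle array). Like Arntl, it was higher on the transgenic chlorhexidine and WT vehicle arrays than on the remaining arrays. Ciart, a repressor of the Arntl and Clock pair, had 36.2 (not Present) with chlorhexidine against 71.9 with vehicle in transgenic tissue and 49.5 against 56.2 in WT tissue, at -0.99 and -0.18 (-0.54 against the transgenic vehicle array). The casein kinase genes Csnk1d, Csnk1e and Csnk2a1, which phosphorylate the Per proteins, lay between -0.21 and 0.21 in both genotypes, but against the transgenic vehicle array the WT differences were 0.22, -0.36 and -0.60 for Csnk1d, Csnk1e and Csnk2a1.

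Known clock outputs were read from a list of 17, of which 16 were on the arrays and 15 were detected. Chlorhexidine called 1 of these lower in transgenic and 4 in WT tissue, and 0 higher in each. Over all genes the rule called 1.40% lower and 3.81% higher in transgenic tissue, and 4.93% lower and 8.22% higher in WT tissue. Usp2, a ubiquitin protease with a strong daily rhythm, had 1251 with chlorhexidine against 2057 with vehicle in transgenic tissue and 1018 against 2479 in WT tissue, 2.44-fold lower. Ppara, a nuclear receptor of fatty acid oxidation, had 58.9 with chlorhexidine against 129 with vehicle in transgenic tissue and 50.8 against 163 in WT tissue, 2.20-fold and 3.20-fold lower. Lpin1, a phosphatidate phosphatase, and Pdk4, which restrains pyruvate dehydrogenase, were 2.50-fold and 2.15-fold lower in WT tissue. Against the transgenic vehicle array the WT differences were -1.02 for Usp2, -1.35 for Ppara, -1.43 for Lpin1 and -0.96 for Pdk4, so Pdk4 was then under 2-fold. In that comparison 3 outputs were called lower and 1 higher, Pnp, a purine nucleoside phosphorylase, at 1.12. Of all 12754 genes, the rule called 455 lower and 922 higher there. Pnp had 1266 with chlorhexidine against 679 with vehicle in transgenic tissue and 1477 against 739 in WT tissue, where its difference of 0.9997 fell just short of the rule.

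Summed signals of cell type markers differed between the arrays as well. All 12 skeletal muscle markers were Present on every array, and their summed signal was 98590 with chlorhexidine against 93980 with vehicle in transgenic tissue and 96810 against 114500 in WT tissue. The 10 mesothelial markers, which mark the cells lining the peritoneum, were Present on every array too, with sums of 1021 against 1207 and 579 against 1546. The transgenic sum follows Slpi, a protease inhibitor (341.5 against 547), while 6 of the 10 mesothelial markers lay above 0 in transgenic tissue (median log2 difference 0.18) and 8 lay below 0 in WT tissue (median -0.82). The 8 adipocyte markers summed to 10440 with chlorhexidine against 14290 with vehicle in transgenic tissue and to 7224 against 13770 in WT tissue. The 9 monocyte and macrophage markers summed to 8567 against 5737 and 8933 against 5323, and the 8 fibroblast markers to 33320 against 20360 and 38770 against 20250. The 5 B and plasma cell markers summed to 224 against 1786 and 145 against 4178, the 8 T and NK cell markers to 193 against 286 and 342 against 431 (1 of them Present on no array), and the 6 neutrophil markers to 2109 against 235 and 381 against 108 (2 of them Present on no array). Of the 7 detected T and NK cell markers, 5 lay below and 2 above 0 in transgenic tissue. In WT tissue 4 lay below and 3 above 0, among them Nkg7, which was 2.49-fold higher. Of the 4 detected neutrophil markers, all lay above 0 in transgenic tissue, and in WT tissue S100a8 and S100a9 lay above 0 while Ngp (-0.87) and Mmp9 (-0.49) lay below. The 6 endothelial markers summed to 690.3 against 724 and 902 against 577. The part of these cell types in the clock gene differences was not tested.

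Immediate early genes, which respond within minutes to signals and handling and share with Per1 a response to cyclic AMP signalling, differed between the arrays by more than the clock genes. The median of 11 such genes with chlorhexidine was -1.01 in transgenic tissue, with 6 called lower, and 1.54 in WT tissue, with 8 called higher. Over all genes the rule called 1.40% lower in transgenic and 8.22% higher in WT tissue. Against the transgenic vehicle array the WT median was -0.34. Between the vehicle arrays the median was 1.61, with 7 called higher in transgenic tissue, where 0.957% of all genes were. Egr1 had 700.4 with chlorhexidine against 1138 with vehicle in transgenic tissue and 1496 against 367 in WT tissue. Fosb had 23.6 against 107 in transgenic tissue and 47.2 against 7.61, the last not Present, in WT tissue. Egr2 and Ier2 were low on the WT vehicle array as well, at 27.0 and 72.9, against 138 and 366 on the WT chlorhexidine array. Per1 followed no such order, with its lowest signal on the transgenic chlorhexidine array and its highest on the WT vehicle array.

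**Figure D5:**
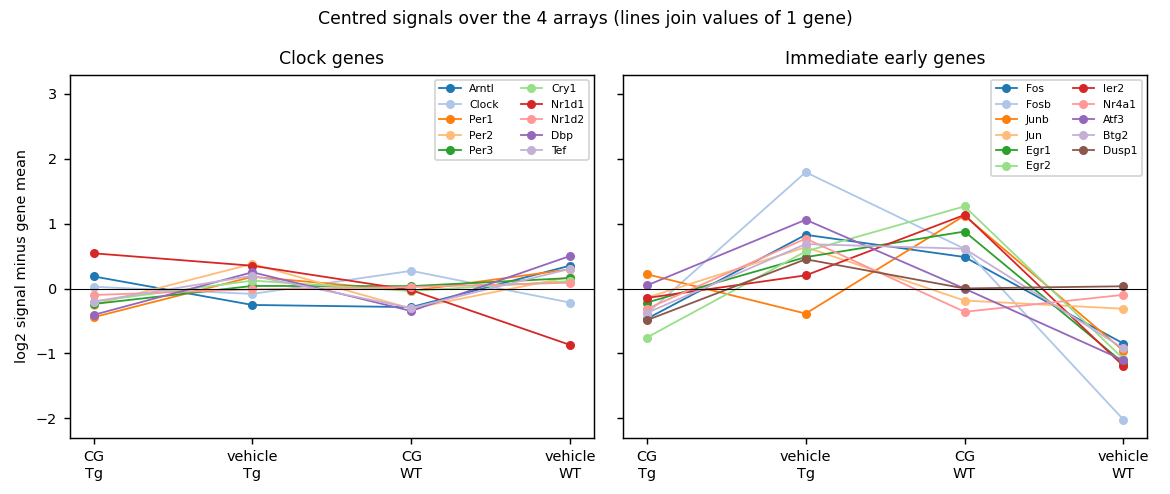
Log2 signal minus the gene's mean over 4 arrays, for the 10 clock genes (left) and 11 immediate early genes (right), with lines joining the values of 1 gene. Apart from Nr1d1, the clock genes stay within about 1 log2 unit over the arrays, while 9 of the 11 immediate early genes are lowest on the WT vehicle array, which stood apart. The same count over all genes was not made.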

How the data were processed

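Complementary RNA was labelled with biotin by a 3' amplification kit and hybridised to 4 arrays, 1 per group, per the labels' protocols. The authors deposited 1 intensity value per probe set on a linear scale, with a call (Present, Marginal or Absent) and a detection p-value. The algorithm and the scaling target: not given in the sources used here. A table of the whole series repeated these signals, with 0 values differing.

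The members and the gene lists were chosen with earlier results of these data known. Leaving out 64 control probe sets, each array was multiplied to the mean of the 4 trimmed means (2% removed at either end), by 1.01 (transgenic, chlorhexidine), 0.877 (transgenic, vehicle), 0.984 (WT, chlorhexidine) and 1.17 (WT, vehicle). Signals were floored at 0.1 before log2. Of 45037 probe sets, 34945 had 1 gene symbol, and 932 with several were not named. Each gene was read by its brightest probe set by mean log2. Calls used the rule of size given above, with a brightness floor of 34.5 to 35.4 on the 4 arrays. A fold against an array without a Present call used, as the divisor, the array's lowest Present signal or the probe set's own signal, whichever was higher. All members are reported. From the clock and output lists, genes called by the rule were named, and from the immediate early and glucocorticoid lists the 4 with the largest mean size of difference. Hlf, Nfil3, Ciart, Bhlhe40 and the kinases were named after their values were seen. Alternatives were 4 other scalings, a pseudocount of 32, other choices of probe set, other filters and thresholds, and the other genotype's vehicle array. The rule was tested on simulated data. Python 3.11.15, pandas 2.3.3 and numpy 2.4.6 were used. The number of arrays limits the precision.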

Additional observations from a re-analysis of the deposited data

Results flagged for a closer look

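Arntl was the 1 of 10 members whose chlorhexidine difference lay above 0 in transgenic and below 0 in WT tissue. Over all 12754 genes, 3473 differed in sign between the genotypes, in either order. The transgenic difference minus the WT difference was 1.08 on the log2 scale. It depends on the vehicle arrays. With these exchanged, Arntl differed by -0.03 in WT and by -0.17 in transgenic tissue. The difference between genotypes was not tested, since each value comes from 1 pair of arrays. Between the chlorhexidine arrays Arntl differed by 0.47 and between the vehicle arrays by -0.61. When the gene's value was the mean of both its probe sets, the second of which was Present on 1 array, the chlorhexidine differences were -1.70 in transgenic and 0.12 in WT tissue.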

How the results depend on the processing

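No paired analysis was possible because each group has 1 array. In the chlorhexidine comparisons the count of members called stayed at 0 under quantile normalization, the deposited scaling, a pseudocount of 32, either choice of probe sets (1 of which leaves out Cry1), both other filters on dim probe sets, a 3-fold threshold and the other genotype's vehicle array. The exceptions were a 1.5-fold threshold, with 3 lower in transgenic and 3 lower in WT tissue, and in WT tissue median centring with 1 lower (Dbp) and housekeeping scaling with 3 lower (Dbp, Tef and Arntl). Under vehicle, the single call (Nr1d1, higher in transgenic tissue) was 0 with the pseudocount, with Present calls required on both arrays and at 3-fold, and 1 member was lower at 1.5-fold. Between genotypes under chlorhexidine the count stayed at 0 under all alternatives. Of 296 recomputed member differences, 42 moved by more than the spread between a gene's probe sets. The scaling moved all genes together: the median WT chlorhexidine difference over all genes was 0.25 with the deposited scaling, -0.11 after quantile normalization, -0.23 after median centring and -0.46 with housekeeping scaling, and in transgenic tissue it was -0.20 with the deposited and -0.21 with the housekeeping scaling. With housekeeping scaling Dbp was at -1.31 and Tef at -1.07 in WT tissue. Under vehicle the median over all genes was 0.37 with the deposited scaling, -0.17 after median centring and -0.13 with housekeeping scaling, and between genotypes under chlorhexidine it was 0.13 with housekeeping scaling. The split of all genes called in WT tissue was 1049 higher and 629 lower, against 1586 and 318 (deposited), 868 and 752 (quantile), 723 and 1225 (median) and 505 and 2109 (housekeeping). In transgenic tissue the split was 486 and 178, against 329 and 320 (deposited) and 324 and 327 (housekeeping). Between genotypes under chlorhexidine it was 100 and 123, against 132 and 101 (median), 130 and 105 (quantile) and 167 and 72 (housekeeping). Under vehicle it was 122 and 64, against 458 and 7 (deposited), 92 and 94 (quantile), 89 and 119 (median) and 93 and 89 (housekeeping). Dim probe sets such as that of Nr1d1 lie close to background and limit what can be read from them.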

Other observations

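Genes that glucocorticoid hormones induce, which carry a daily rhythm of their own and include Per1, had a median chlorhexidine difference of -0.15 in transgenic and -0.33 in WT tissue over 11 detected genes (-0.39 in WT against the transgenic vehicle array). The 2 genes called, both higher in both genotypes, were the cell cycle inhibitor Cdkn1a and the metallothionein Mt2. Over all genes the rule called 3.81% higher in transgenic and 8.22% higher in WT tissue. Cdkn1a had 839 with chlorhexidine against 312 with vehicle in transgenic tissue and 1196 against 242 in WT tissue. Mt2 had 3207 against 1472 in transgenic tissue and 3019 against 1479 in WT tissue. Dusp1, a MAP kinase phosphatase, had 2053 against 3938 in transgenic tissue and 2883 against 2950 in WT tissue, and Errfi1, an inhibitor of EGF receptor signalling, had 868 against 970 and 1190 against 685 in the same order. Between the vehicle arrays the 11 genes had a median of 0.0003.

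Over the 4 arrays, the genes nearest to Dbp by root mean square distance of centred log2 signals were Pex7 (0.0397), 1700120C14Rik (0.0439) and Ube2d-ps (0.0449), of 10397 genes Present on all arrays. Those nearest to Arntl were Pkig (0.0246), Bsdc1 (0.0270) and Grk6 (0.0288). Within a distance of 0.1 lay 91 genes for Dbp and 42 for Arntl, so 4 arrays do not single these genes out.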
